A study of Mus musculus with 8 samples.

Results

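The nuclear genes for the subunits of oxidative phosphorylation were followed over 3 stages of mouse eye development in the optic fissure, a cleft on the underside of the optic cup that must close for a normal eye. The members were all probe sets with a single gene symbol that starts with Ndufa, Ndufb, Ndufc, Ndufs, Ndufv, Sdha to Sdhd, Uqcr, Cox4 to Cox8 or Atp5, without pseudogene symbols. They numbered 185 of 45101 probe sets and covered 94 genes, of which 80 encode subunits and 14 encode assembly factors or related products that share a prefix. The filter on low signal kept 173 of the 185 probe sets and 91 of the 94 genes. Ndufb4, Cox7a1 and Cox7b2 had no probe set above it.

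The tissue came from wild-type C57BL/6 embryos and was isolated on frozen sections with a laser microdissection instrument. No group carried a treatment or a mutation, and every array was made from the fissures of 3 pooled embryos. There were 3 arrays of embryonic day 10.5 (A, B and C), 3 of embryonic day 11.5 (A, B and C) and 2 of embryonic day 12.5 (A and B). Arrays of 1 stage are described as biological replicates, and p-values measure the spread between these arrays. The fissure and ventral optic cup markers Vax1, Vax2, Bmp7 and Ntn1 all passed the filter, while Pax2 had no probe set with a single symbol. Vax2 lay between 8.25 and 10.07 log2 units on the 8 arrays. Ntn1, a marker of the fissure margins, read 8.83, 8.40 and 7.88 at E10.5, 6.97, 6.63 and 6.83 at E11.5, and 4.56 and 4.10 at E12.5. Its fall from E10.5 to E12.5 was by 4.04 on the log2 scale (SE 0.30, adjusted p = 3.57e-05), and by 3.89 after quantile normalization.

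Oxidative phosphorylation takes place in the inner mitochondrial membrane. Complexes I and II pass electrons from NADH and succinate to ubiquinone, complex III passes them on to cytochrome c, and complex IV passes them to oxygen. Complexes I, III and IV pump protons across the membrane, and complex V, the ATP synthase, lets them flow back to make ATP. A few core subunits of complexes I, III, IV and V come from mitochondrial DNA, and the rest, the genes described here, are encoded in the nucleus. In the eye, the pathway is best known from the photoreceptors and ganglion cells of the mature retina, which consume much ATP.

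Promoters of these genes are known to hold sites of a few shared factors, among them NRF1, the ETS factor GABP, YY1 and the estrogen-related receptors (ERR). RefSeq promoter windows of build GRCm38.p6, each 300 bases long with 250 before the start of transcription, were matched for 78 of the 94 genes, in 83 windows. The exact NRF1 palindrome, whose letters are the capitals of the first 4 stretches below, stood in 6 of them (7.23%) against 1.33% of the windows of all protein-coding genes. With the 6th of its 10 bases left free, which takes in the palindrome, it stood in 20 windows (24.1%, against 6.38%). The GABP core CCGGAAG stood in 22 windows (26.5%, against 11.6%), the YY1 word in 5 (6.02%, against 1.21%) and the ERR element TCAAGGTCA in 2 (2.41%, against 0.334%). All were searched on both strands. A match is a description of the letters and not a measured site.

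The 4 genes with the exact NRF1 palindrome upstream of the start are shown first, then Atp5g3, another gene of the c subunit that Atp5g2 encodes, and Atp5e, which fell after quantile normalization. Each stretch reads 5′ to 3′ along the gene's own strand, with the matched word in capitals:

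Atp5g2, NRF1 palindrome 42 bases before the start, chr15:102671055-102671114, minus strand: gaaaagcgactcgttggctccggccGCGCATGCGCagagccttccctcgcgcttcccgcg

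Atp5k, NRF1 palindrome 50 bases before the start, chr5:108434415-108434474, minus strand: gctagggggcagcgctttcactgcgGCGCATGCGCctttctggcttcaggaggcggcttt

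Cox6a1, NRF1 palindrome 162 bases before the start, chr5:115349086-115349145, minus strand: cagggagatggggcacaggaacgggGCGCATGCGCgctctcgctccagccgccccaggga

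Ndufaf4, NRF1 palindrome 113 bases before the start, chr4:24897945-24898004, plus strand: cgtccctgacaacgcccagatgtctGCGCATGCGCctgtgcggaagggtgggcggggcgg

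Atp5g3, ERR element (on the opposite strand) 52 bases before the start, chr2:73911345-73911404, minus strand: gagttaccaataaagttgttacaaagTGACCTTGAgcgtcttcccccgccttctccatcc

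Atp5e, GABP core (on the opposite strand) 102 bases before the start, chr2:174464171-174464230, minus strand: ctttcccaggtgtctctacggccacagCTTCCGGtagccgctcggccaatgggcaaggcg

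The arrays differed in the upper end of their signals, and this bears on the members, which are bright: 67.1% of the kept member probe sets were among the 6756 brightest of the 27022 kept probe sets. The 99th percentile of log2 signal was 12.5 to 12.9 on the E10.5 arrays, 11.2 to 12.4 on the E11.5 arrays and 12.5 to 12.6 on the E12.5 arrays. E11.5 A had the lowest value. The array medians of all probe sets were close, so centring on the median does not remove this difference, whereas quantile normalization does. Results for the members as a group are therefore given on the deposited values and after quantile normalization. Some single genes and the marker sums are given on the deposited values only. The 3 prime minus 5 prime signal of the Gapdh control, which rises as amplified transcripts get shorter, was 4.19 to 4.71 at E10.5, 3.35 to 4.63 at E11.5 and 4.78 to 5.17 at E12.5. For the Actb control it was 6.83 to 6.96, 5.45 to 6.61 and 6.88 to 7.21. The E12.5 arrays had the highest Gapdh values and E11.5 A the lowest of both controls, and the part of this in the results below was not tested.

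The members as a group stood lower at E12.5 than at E10.5 on either scale, while the interval that held the difference was not the same on both. On the deposited values, the member median minus the median of all kept probe sets on the same array was 3.51, 3.24 and 3.24 on the E10.5 arrays A to C. It was 2.85, 2.90 and 3.15 on the E11.5 arrays and 2.93 and 2.74 on the E12.5 arrays. The E10.5 arrays were above all others, and the E11.5 and E12.5 arrays overlapped. After quantile normalization the values were 3.16, 3.19 and 3.13 at E10.5, 3.27, 3.13 and 3.18 at E11.5, and 2.81 and 2.70 at E12.5. Here the E10.5 and E11.5 arrays overlapped, and both E12.5 arrays were below every other array. In pooled tissue, fewer cells of a type and less RNA per cell cannot be told apart.

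**Figure D1:**
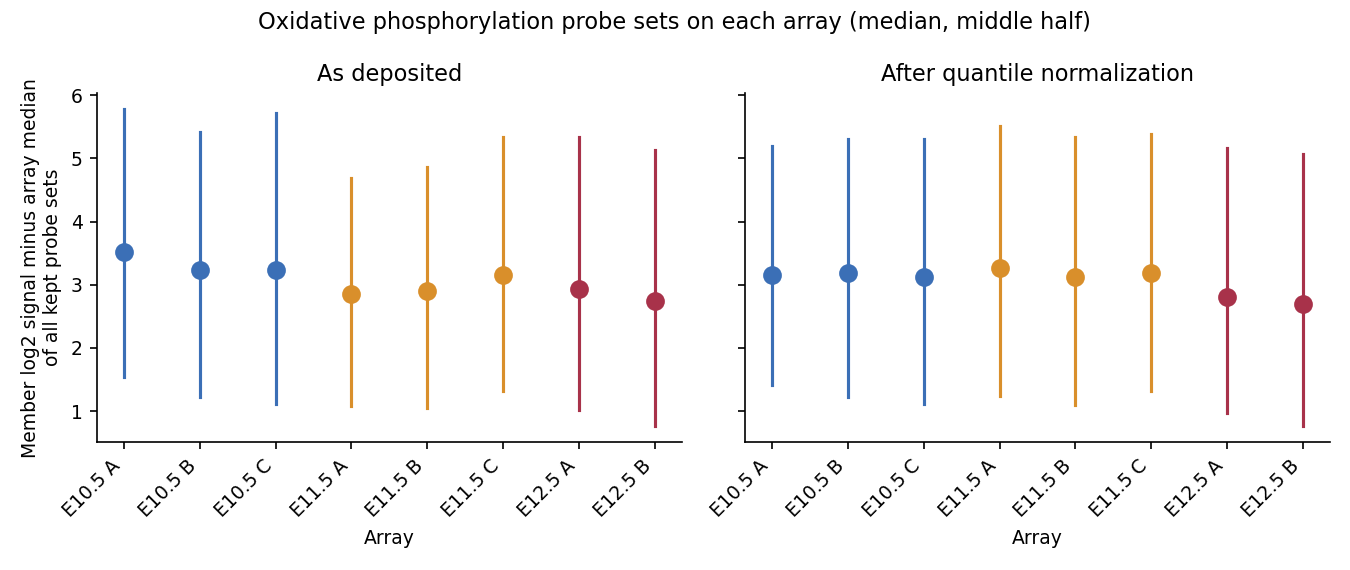
Median (point) and interquartile range (line) of the log2 signal of the 173 kept member probe sets minus the array median of all 27022 kept probe sets, for each array (x axis, coloured by stage), as deposited (left) and after quantile normalization (right). On the left the E10.5 arrays stand highest, at 3.24 to 3.51, and on the right the E12.5 arrays stand lowest, at 2.70 and 2.81.

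The same pattern was seen in the changes between stage means. From E10.5 to E11.5 the members' median log2 change was -0.49 against -0.18 for all kept probe sets as deposited, and 0.00 against -0.02 after quantile normalization. From E11.5 to E12.5 it was 0.12 against 0.10 as deposited and -0.24 against -0.04 after quantile normalization. From E10.5 to E12.5 it was -0.32 against -0.08 as deposited and -0.21 against -0.06 after quantile normalization. The members' median change relative to all probe sets over these 2 days was thus -0.24 on one scale and -0.16 on the other. Without 1 array in turn it stayed between -0.32 and -0.17, and between -0.22 and -0.12 after quantile normalization. Among the 6756 brightest probe sets, the median change from E10.5 to E12.5 was -0.39 for members against -0.12 for all probe sets as deposited, and -0.22 against -0.03 after quantile normalization. The comparisons share arrays, so they are not independent of each other.

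Counted probe set by probe set, few single members passed the test (limma, adjusted p under 0.05 over all 27022 probe sets). Between E10.5 and E11.5 no member of 173 passed, against 0.126% of all probe sets. At an unadjusted p under 0.05 there were 61 members (35.3%, against 19.4% of all), all of them lower, where 16.0% of all probe sets were lower. After quantile normalization again no member passed (0.170% of all did), and 7 members had an unadjusted p under 0.05 (4.05%, against 11.2% of all). The E11.5 arrays lay below all E10.5 arrays for 64 members (37.0%, against 19.3% of all) as deposited and for 13 (7.51%, against 8.31%) after quantile normalization, so that the members stood near the background on the latter scale.

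Between E11.5 and E12.5, 1 member rose as deposited, against 1.82% of all probe sets called. After quantile normalization 1 rose and 1 fell, where 1.54% of all were called (1.04% higher and 0.496% lower). At an unadjusted p under 0.05, 40 members (23.1%) were then lower, against 7.30% of all, whereas as deposited 3 members (1.73%) were, against 2.92%. The E12.5 arrays lay below all E11.5 arrays for 14 members (8.09%, against 14.1%) as deposited and for 86 (49.7%, against 24.3%) after quantile normalization. The counts of calls again moved with single arrays. As deposited there were 0 without E11.5 A, E11.5 B or E12.5 B (0.422% to 0.751% of all probe sets) and 2 without E10.5 C or E11.5 C (3.14% and 3.35%). After quantile normalization there were 21 without E10.5 C (12.1% of members, against 4.97% of all probe sets in that fit), 2 without E11.5 C (1.01% of all), 1 without E10.5 A (1.28%), and 0 without E10.5 B, E11.5 A, E11.5 B, E12.5 A or E12.5 B (0.248% to 1.86%).

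Between E10.5 and E12.5, 1 member rose and 2 fell as deposited, where 4.64% of all probe sets were called (3.08% higher and 1.56% lower). After quantile normalization 1 rose and 11 fell (6.36% of members lower), where 6.15% of all were called (3.77% higher and 2.39% lower). After median centring 1 was called (4.63% of all), and after cyclic loess 8 were (7.18% of all). These counts changed with single arrays. Fits without E12.5 A or E12.5 B leave 1 array at that stage and are not counted here. As deposited, no member was called without E10.5 A or E11.5 B, 1 without E10.5 C, and 2 without E11.5 A or E11.5 C. In these fits at most 1.16% of members were called, against 2.53% to 4.52% of all probe sets. There were 6 without E10.5 B (3.47% of members, against 5.96% of all). After quantile normalization there were 17 without E10.5 B and also 17 without E10.5 C. These were 9.83% of members in each fit, against 6.85% and 6.42% of all. There were 5, 6 and 5 without E10.5 A, E11.5 A and E11.5 C (2.89% to 3.47%, against 3.65% to 4.67%). Without E11.5 B there was 1 (0.578%, against 2.41%). Among these fits, the members' share was above that of all probe sets only after quantile normalization, without E10.5 B or E10.5 C.

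Looser counts were also taken between E10.5 and E12.5. At an unadjusted p under 0.05, 34 members (19.7%, against 11.5% of all) were lower as deposited and 54 (31.2%, against 12.6%) after quantile normalization. The E12.5 arrays lay below all E10.5 arrays for 83 members (48.0%, against 25.7%) as deposited and for 76 (43.9%, against 25.5%) after quantile normalization. They lay above all E10.5 arrays for 7 members (4.05%, against 19.3%) and 15 members (8.67%, against 20.6%). The F test for any stage difference called 1 member as deposited, against 2.92% of all, and 2 after quantile normalization, against 3.15%.

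**Figure D2:**
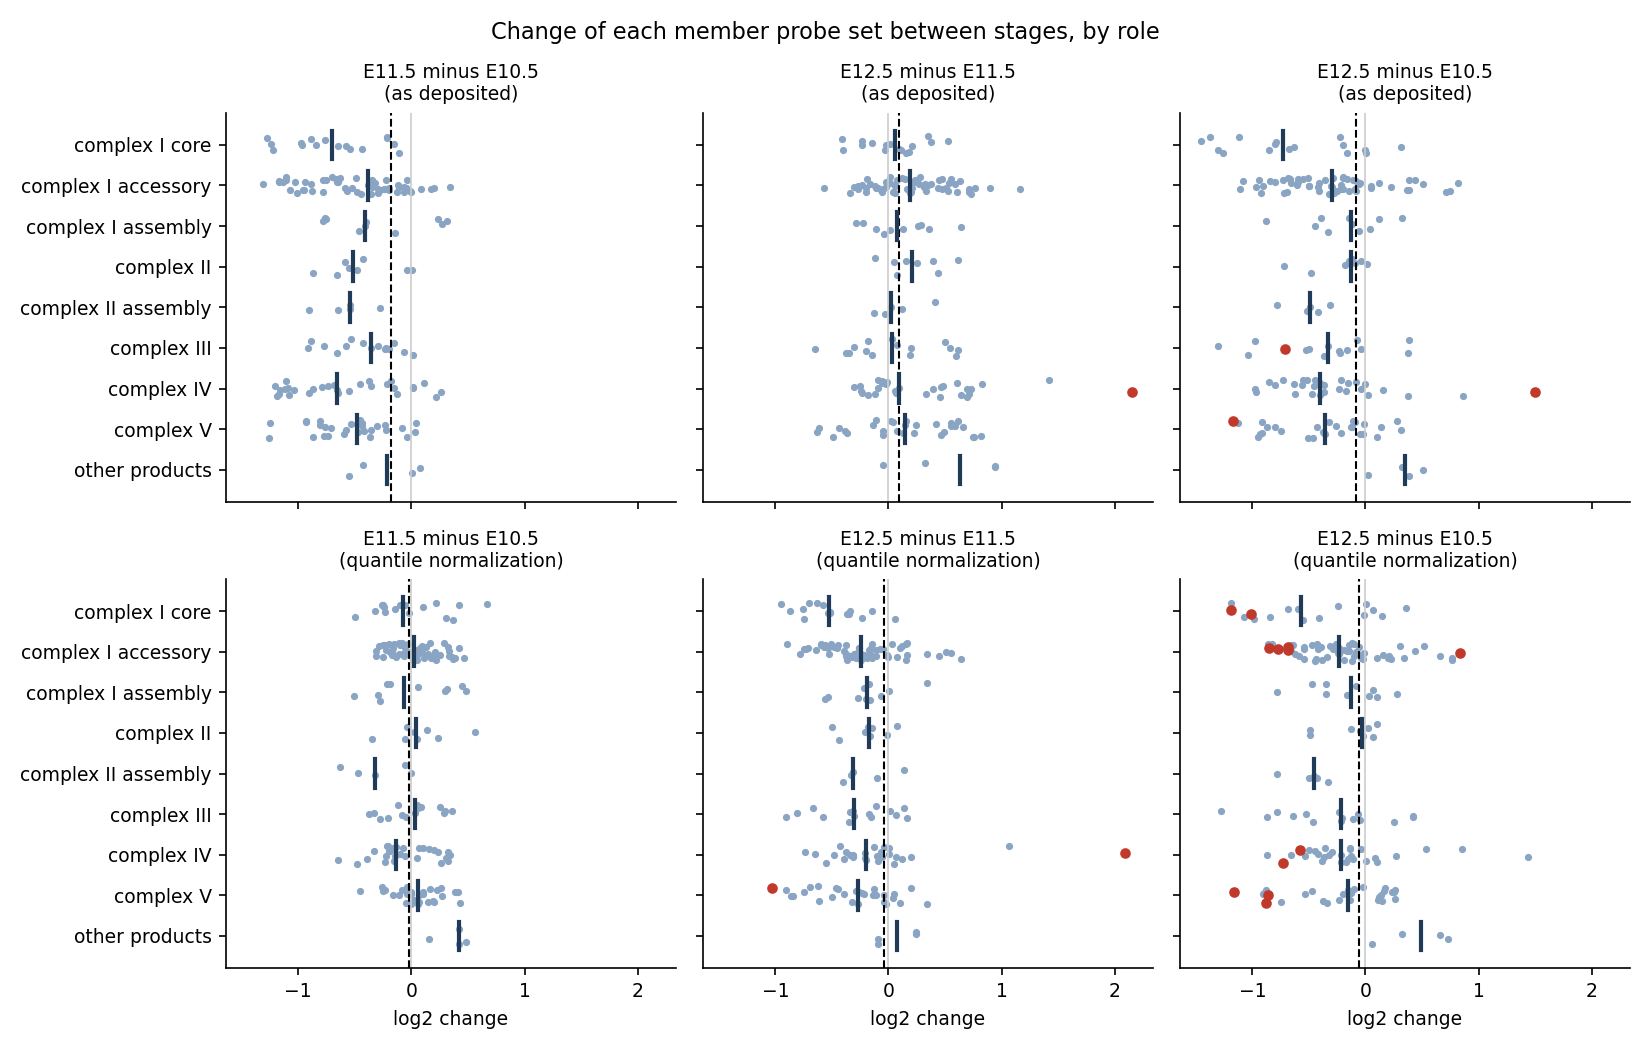
Log2 change of each kept member probe set (point) for the 3 comparisons (columns), by role (rows), as deposited (upper panels) and after quantile normalization (lower panels); red points had an adjusted p under 0.05, the dark bar is the median of the role and the dashed line the median of all kept probe sets. In the comparison of E12.5 with E10.5 the core subunits of complex I lie farthest to the left, at a median of -0.73 as deposited and -0.57 after quantile normalization.

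Complex I, the largest complex of the chain, oxidises NADH. Its core subunits carry the flavin, the iron-sulfur clusters and the quinone site, and they had the lowest median of the roles from E10.5 to E12.5: -0.73 over 16 probe sets as deposited and -0.57 after quantile normalization. No core probe set was called as deposited, and 2 of 16 fell after quantile normalization, where 2.39% of all probe sets fell. The accessory subunits, which surround the core and are needed for its assembly and stability, had medians of -0.29 and -0.23 over 57 probe sets. None was called as deposited, and 4 of 57 fell and 1 rose after quantile normalization, against 2.39% and 3.77% of all probe sets. The assembly factors Ndufaf1 to Ndufaf8 had medians of -0.13 on both scales over 10 probe sets, with none called. Whether the roles differ was not tested.

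Ndufs7 encodes the core subunit next to the quinone site. Its probe set 1424313_a_at read 11.68, 10.95 and 12.41 log2 units at E10.5, 10.28, 10.51 and 10.59 at E11.5, and 10.43 and 10.01 at E12.5. The E10.5 arrays were all higher than the rest, and E10.5 C stood highest. The change from E10.5 to E12.5 was -1.46 (SE 0.41, 2.74-fold lower, adjusted p = 0.0686) as deposited and -1.19 (SE 0.30, adjusted p = 0.0478) after quantile normalization. The other probe set of the gene, 1451312_at, changed by -0.79 and -0.69 on these scales, with adjusted p = 0.238 and 0.182.

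Ndufs8, which carries iron-sulfur clusters beside Ndufs7, was read by 6 probe sets. Its brightest, 1455283_x_at, gave 12.64, 12.39 and 13.58 at E10.5, 11.19, 11.59 and 12.003 at E11.5, and 11.67 and 11.46 at E12.5. Again every E10.5 array was higher than every later one, with C the highest. The change from E10.5 to E12.5 was -1.30 (SE 0.43, adjusted p = 0.106) as deposited and -1.02 (SE 0.26, adjusted p = 0.0474) after quantile normalization. Of the other 5 probe sets, 4 changed by -1.37 to -0.85 as deposited with every E12.5 array below every E10.5 array, and 1434212_at changed by -0.20 with overlap. The suffix of some of these probe sets marks probes that can match other transcripts. Without E10.5 B or C the quantile-normalized calls of Ndufs7 and Ndufs8 were kept. Both were lost when any E11.5 array or either E12.5 array was left out, and that of Ndufs7 also without E10.5 A, with changes over these fits between -1.41 and -0.90 and between -1.20 and -0.72.

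None of the other core subunits was called. Ndufv1, which binds NADH and the flavin, changed by -0.80 (SE 0.36, adjusted p = 0.224) from E10.5 to E12.5 at its brightest probe set, 1456015_x_at, and by -0.55 after quantile normalization, without overlap on either scale. The arrays of another probe set, 1415967_at, overlapped (-0.001). Ndufs3, in the arm that joins the clusters to the membrane, changed by -0.67 (SE 0.34, adjusted p = 0.266). In contrast Ndufs1, the largest iron-sulfur subunit, changed by 0.31 (SE 0.38, adjusted p = 0.663) and Ndufv2, the partner of Ndufv1, by -0.23 (SE 0.55, adjusted p = 0.838), both with overlapping arrays. For Ndufv2 this overlap came with a low reading on E10.5 C, 11.33 against 13.22 and 12.46 on A and B, the same array on which Ndufs7 and Ndufs8 were highest.

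Among the accessory subunits of complex I, Ndufa9, Ndufa12 and Ndufb10 fell and Ndufa1 rose after quantile normalization, while none of these passed as deposited. Ndufa12, at the surface of the matrix arm, read 13.09, 12.83 and 13.17 at E10.5, 11.38, 11.93 and 12.29 at E11.5, and 12.16 and 11.97 at E12.5 with probe set 1455806_x_at. All E10.5 arrays lay above all later ones. After quantile normalization the E10.5 values were 12.53, 12.62 and 12.61, the E11.5 values 12.59, 12.45 and 12.26, and the E12.5 values 11.93 and 11.87, so that only the E12.5 arrays stood apart. The change from E10.5 to E12.5 was -0.96 (SE 0.38, adjusted p = 0.166) as deposited and -0.68 (SE 0.14, adjusted p = 0.0246) after quantile normalization, and 1433513_x_at also fell by 0.68 on the latter scale (adjusted p = 0.0312). The remaining kept probe set, 1418814_s_at, changed by -0.50 as deposited and -0.42 after quantile normalization, with overlap on both. The calls were lost without E11.5 B, E12.5 A or E12.5 B, and that of 1433513_x_at also without E10.5 B, with changes between -0.71 and -0.65 and between -0.78 and -0.59.

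Ndufb10, in the membrane arm, gave 9.32, 8.78 and 9.26 at E10.5, 8.37, 8.65 and 8.65 at E11.5, and 8.32 and 8.11 at E12.5. The 3 stages did not overlap. The change over the 2 days was -0.91 (SE 0.28, adjusted p = 0.0916) as deposited and -0.85 (SE 0.21, adjusted p = 0.0422) after quantile normalization. Ndufa9, near the quinone site, changed by -0.92 (SE 0.36, adjusted p = 0.168) and fell by 0.78 (SE 0.19, adjusted p = 0.0418) after quantile normalization. The calls of Ndufb10 and Ndufa9 were lost without E10.5 A, any E11.5 array or either E12.5 array, with changes between -0.95 and -0.78 and between -0.87 and -0.70. Ndufb8, another membrane-arm subunit, had the largest non-overlapping change of the complex from E10.5 to E11.5, -1.31 (SE 0.35, adjusted p = 0.152), which was -0.32 with overlap after quantile normalization.

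Ndufa1, a small membrane-arm subunit, went the other way. It read 13.24, 13.01 and 12.89 at E10.5, 11.47, 12.45 and 13.25 at E11.5, and 13.66 and 13.44 at E12.5, and the E11.5 arrays spread over more than the other stages. The E12.5 arrays were above all others. After quantile normalization the same arrays gave 12.69, 12.79 and 12.36, then 12.68, 12.96 and 13.18, then 13.52 and 13.38. The change from E10.5 to E12.5 was 0.50 (SE 0.49, adjusted p = 0.577) as deposited and 0.84 (SE 0.18, adjusted p = 0.0288) after quantile normalization. That call was lost without E10.5 A, E11.5 B, E12.5 A or E12.5 B, with the change between 0.71 and 0.93.

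Complex II, succinate dehydrogenase, is the 1 complex with no mitochondrially encoded subunit and also an enzyme of the citric acid cycle. Its 8 kept probe sets had median changes from E10.5 to E12.5 of -0.13 as deposited and -0.03 after quantile normalization, near those of all probe sets (-0.08 and -0.06), and none was called. Sdha, the flavoprotein, changed by -0.72 (SE 0.37, adjusted p = 0.282) at 1426689_s_at and by -0.04 at 1426688_at, so its probe sets disagreed. Sdhb, the iron-sulfur subunit, changed by -0.15 (SE 0.38). The membrane anchors Sdhc and Sdhd changed by -0.48 (SE 0.28) and -0.18 (SE 0.32). The assembly factors Sdhaf1 to Sdhaf4, which put the flavin and the iron-sulfur clusters into complex II, had medians of -0.49 and -0.46 over 5 probe sets, with the E12.5 arrays below the E10.5 arrays for 4 of the 5 on both scales (25.7% and 25.5% of all probe sets) and none called.

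Complex III passes electrons from ubiquinol to cytochrome c. Uqcr10, one of its small subunits, fell from E10.5 to E12.5 as deposited. Its probe set 1434340_at read 4.32, 4.69 and 4.37 at E10.5, 3.90, 4.18 and 4.22 at E11.5, and 3.82 and 3.68 at E12.5. These values lie around the filter at 3.94, and the 3 stages did not overlap. The change was -0.71 (SE 0.18, adjusted p = 0.0496), or -0.64 (adjusted p = 0.0701) after quantile normalization. The call was lost in each of the 8 fits without 1 array, with changes between -0.78 and -0.59. The brighter probe set of the gene, 1424364_a_at, changed by -0.50 (adjusted p = 0.291) without overlap.

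The core proteins of complex III differed from each other in value. Uqcrc1 gave 7.75, 7.69 and 8.87 at E10.5, 7.02, 7.51 and 7.81 at E11.5, and 6.94 and 6.65 at E12.5. The E12.5 arrays were lowest, and E10.5 C stood above all. The change from E10.5 to E12.5 was -1.30 (SE 0.38, 2.47-fold lower, adjusted p = 0.0712) as deposited and -1.28 (SE 0.33, adjusted p = 0.0513) after quantile normalization, neither past the threshold. Uqcrc2 changed by -0.07 (SE 0.37, adjusted p = 0.928) and Uqcrfs1, the Rieske iron-sulfur protein, by 0.37 (SE 0.46, adjusted p = 0.664), both with overlap. The complex as a whole had medians of -0.33 and -0.22 over 15 probe sets. Uqcrb had the largest non-overlapping change of the complex from E10.5 to E11.5, -0.91 (SE 0.41), and -0.08 after quantile normalization.

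Complex IV, cytochrome c oxidase, held the member with the largest change upward. Cox7c, a small subunit of the membrane part, was read by probe set 1459884_at at 5.32, 5.33 and 4.33 at E10.5, 3.72, 4.33 and 4.95 at E11.5, and 6.19 and 6.79 at E12.5. Both E12.5 arrays were above all others, while E10.5 and E11.5 overlapped. The rise from E11.5 was 2.15 (SE 0.38, 4.45-fold, adjusted p = 0.0155), and 2.09 (adjusted p = 0.0404) after quantile normalization. The rise from E10.5 was 1.49 (SE 0.38, 2.82-fold, adjusted p = 0.0485), and after quantile normalization the change was 1.44 (adjusted p = 0.0686). This was also the 1 member called by the F test as deposited.

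The second probe set of Cox7c, 1459885_s_at, showed the same order of stages. It read 8.99, 8.93 and 7.92 at E10.5, 7.79, 7.84 and 8.55 at E11.5, and 9.32 and 9.63 at E12.5. Again the E12.5 arrays were highest, with changes of 1.42 (SE 0.38, adjusted p = 0.0941) from E11.5 and 0.86 (SE 0.38, adjusted p = 0.206) from E10.5. The call at 1459884_at from E11.5 to E12.5 was lost without E11.5 A, E11.5 B or E12.5 B, with changes between 1.85 and 2.46 over the fits without 1 array. After quantile normalization this call was kept only without E10.5 C or E11.5 C. That from E10.5 to E12.5 was kept in 2 of 8 such fits, those without E11.5 A or E11.5 C, with changes between 1.16 and 1.79.

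The common subunits of complex IV were read by more probe sets. The 23 kept probe sets of the common forms had medians of -0.40 as deposited and -0.21 after quantile normalization, with the E12.5 arrays below the E10.5 arrays for 14 and 13 of them and above for 2 and 3. Over all probe sets the shares were 25.7% and 25.5% below and 19.3% and 20.6% above. Cox5b, a zinc-binding subunit on the matrix side, fell after quantile normalization at 1435613_x_at by 0.58 (SE 0.14, adjusted p = 0.0456) and at 1454716_x_at by 0.73 (SE 0.19, adjusted p = 0.0496). Its brightest probe set, 1456588_x_at, was not called (-0.44, adjusted p = 0.0704), nor were 1416902_a_at (-0.87, adjusted p = 0.0649) and 1436149_at (0.10, with overlap). On the deposited values 1435613_x_at read 13.41, 12.87 and 13.63 at E10.5, 11.49, 12.15 and 12.71 at E11.5, and 12.59 and 12.31 at E12.5. The E10.5 arrays were above the rest, and the deposited change from E10.5 to E12.5 was -0.86 (SE 0.44, adjusted p = 0.277). Each of these Cox5b calls was kept only without E10.5 B, with changes between -0.67 and -0.48 and between -0.86 and -0.61 over the fits without 1 array.

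Cox4i1, the common form of a regulatory subunit, changed by -0.80 (SE 0.44, adjusted p = 0.308) from E10.5 to E12.5, and Cox5a by -0.51 (SE 0.41, adjusted p = 0.496). Cox5a had the largest non-overlapping change of the complex from E10.5 to E11.5, -1.21 (SE 0.37, adjusted p = 0.161), which was -0.23 after quantile normalization. Cox6a1, Cox6b1, Cox7a2 and Cox8a changed by -0.45, -0.46, -0.55 and -0.36 as deposited, each without overlap and none past the threshold. After quantile normalization Cox6a1 and Cox6b1 overlapped, at -0.13 and -0.17. Ndufa4, once counted with complex I and now known to belong to complex IV, changed by -0.40 (SE 0.37, adjusted p = 0.55).

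Several complex IV subunits have second forms known from particular tissues. Cox6a2, Cox7a1 and Cox8b are the heart and muscle forms, Cox6b2, Cox7b2 and Cox8c are known from testis, and Cox4i2 from lung and low oxygen. Cox7a1 and Cox7b2 did not pass the filter on any probe set. Cox4i2 read 4.45, 4.40 and 4.44 at E10.5, 4.05, 4.04 and 4.13 at E11.5, and 4.05 and 3.86 at E12.5, so that the E10.5 arrays stood above the rest. Its change to E12.5 was -0.48 (SE 0.16, adjusted p = 0.106). The changes of Cox6a2, Cox6b2, Cox8b and Cox8c at their brightest probe sets were -0.37, -0.22, -0.04 and -0.63, and none was called. Markers of striated muscle, summed on the linear scale over 8 kept of 12 listed genes, were 153 to 167 at E10.5, 145 to 167 at E11.5 and 139 to 146 at E12.5.

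A pair of products outside the complexes share the prefixes. Cox7a2l, which helps to join complexes III and IV into larger assemblies, read 12.77, 12.28 and 12.35 at E10.5, 10.99, 12.01 and 12.73 at E11.5, and 12.93 and 12.77 at E12.5. The deposited arrays of E10.5 and E12.5 overlapped. The change was 0.38 (SE 0.48, adjusted p = 0.671), and after quantile normalization it was 0.66 (SE 0.18, adjusted p = 0.0632) without overlap. Ndufa4l2, a relative of Ndufa4 that low oxygen induces, changed by 0.03 (SE 0.32).

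**Figure D3:**
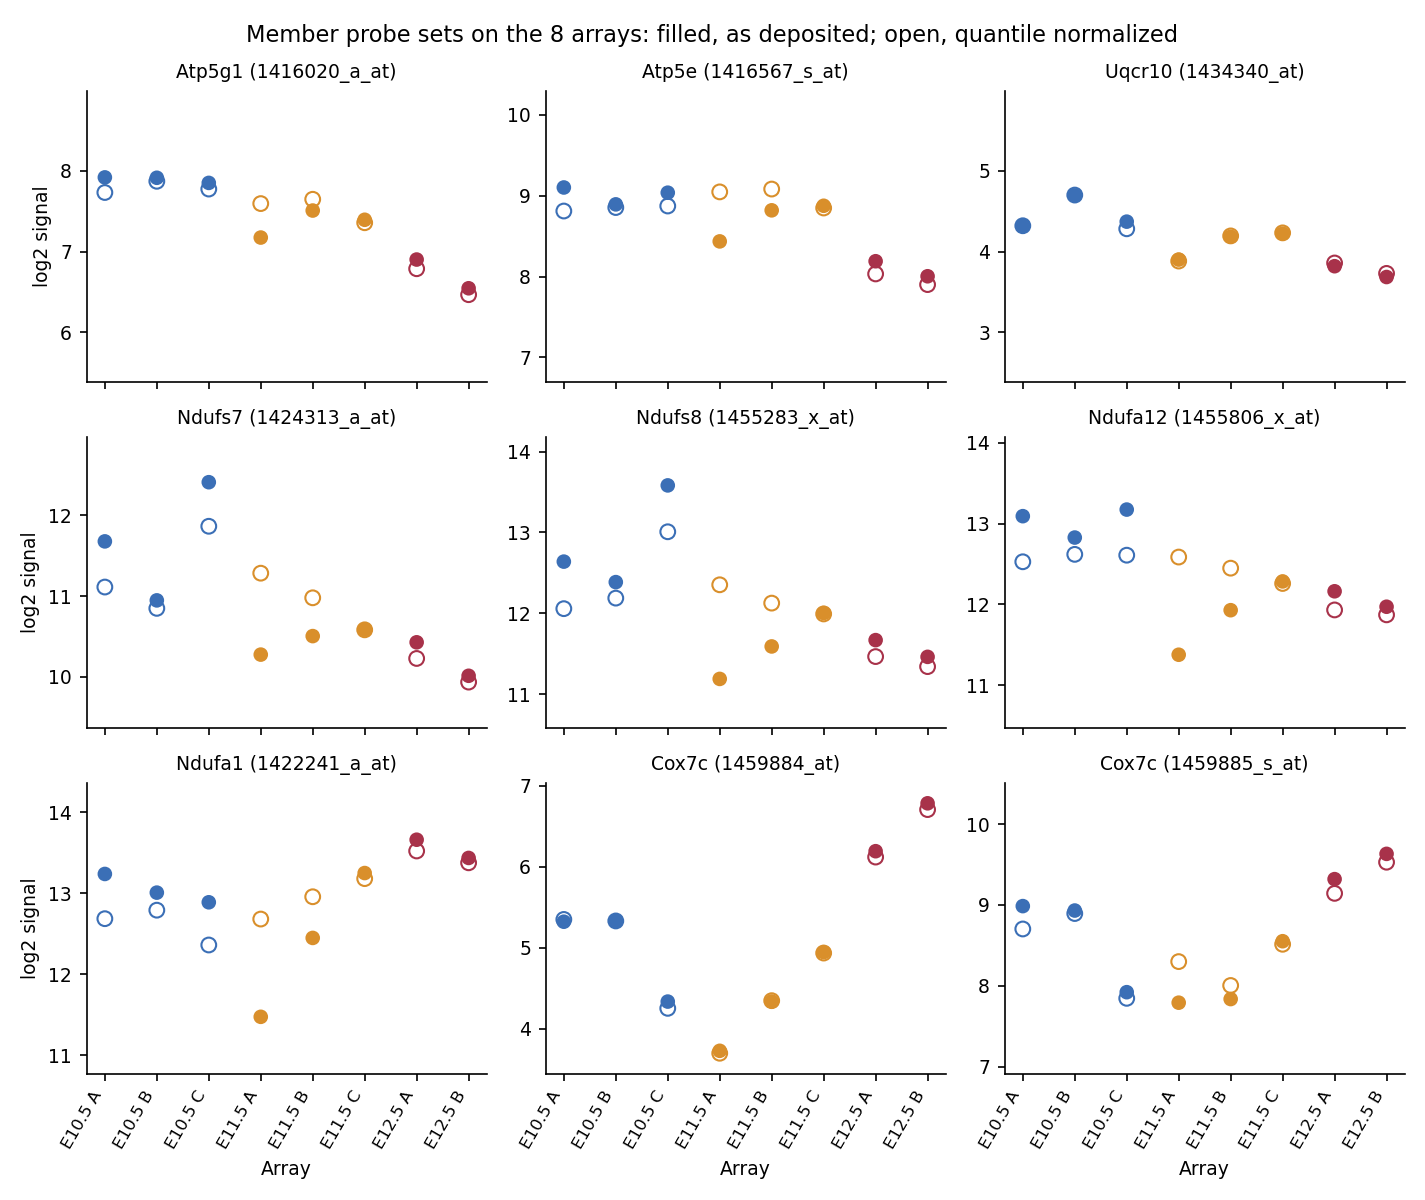
Log2 signal (y axis) of 9 member probe sets on the 8 arrays (x axis, coloured by stage), with filled points as deposited and open points after quantile normalization; every panel spans the same number of log2 units. Atp5g1, Atp5e and Ndufa12 are lowest on the E12.5 arrays after quantile normalization, while Ndufa1 and both Cox7c probe sets are highest there.

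Complex V, the ATP synthase, held the member whose fall passed on both scales. Atp5g1 is 1 of 3 genes that encode the same mature c subunit of the membrane ring, with different targeting peptides. Its probe set 1416020_a_at read 7.92, 7.91 and 7.85 at E10.5, 7.17, 7.51 and 7.39 at E11.5, and 6.90 and 6.55 at E12.5. The 3 stages did not overlap, and the E10.5 arrays agreed within 0.04 (SD, n = 3). Atp5g1 fell by 1.17 from E10.5 to E12.5 (SE 0.25, 2.25-fold lower, adjusted p = 0.0234), and by 1.16 (SE 0.21, adjusted p = 0.0151) after quantile normalization. After quantile normalization the call was lost only without E12.5 B, and as deposited without E10.5 A, E11.5 B, E12.5 A or E12.5 B. The changes over these fits ranged from -1.35 to -0.99 as deposited and from -1.32 to -1.003 after quantile normalization.

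The other c subunit genes changed less, and neither was called. Atp5g2, whose promoter stretch with the NRF1 palindrome is printed above, read 8.02, 8.29 and 7.85 at E10.5, 7.49, 7.92 and 7.67 at E11.5, and 7.55 and 7.06 at E12.5. The E12.5 arrays were below the E10.5 arrays, and the change was -0.75 (SE 0.28, adjusted p = 0.145), and also -0.75 (adjusted p = 0.105) after quantile normalization. Atp5g3, with the ERR element, read 13.74, 13.22 and 13.19 at E10.5, 11.48, 12.61 and 13.27 at E11.5, and 13.09 and 12.93 at E12.5. Its change was -0.38 (SE 0.50, adjusted p = 0.691) without overlap, and -0.10 with overlap after quantile normalization. The differences between the 3 genes were not tested.

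Of the central stalk, which turns inside the catalytic head, the small subunits stood lower at E12.5. Atp5e, the epsilon subunit, read 9.10, 8.89 and 9.04 at E10.5, 8.43, 8.82 and 8.87 at E11.5, and 8.19 and 8.003 at E12.5. Both E12.5 arrays were below all others. From E11.5 to E12.5 the change was -0.61 (SE 0.27, adjusted p = 0.283) as deposited and -1.03 (SE 0.19, adjusted p = 0.0284) after quantile normalization, and from E10.5 to E12.5 it was -0.91 (SE 0.27, adjusted p = 0.0781) and -0.88 (SE 0.19, adjusted p = 0.0288). The call from E11.5 was lost without E10.5 B, E11.5 A, E11.5 B, E12.5 A or E12.5 B, and that from E10.5 without E10.5 A, E11.5 B, E12.5 A or E12.5 B. The changes stayed between -1.10 and -0.96 and between -0.94 and -0.81.

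Atp5d, the delta subunit of the stalk, read 13.04, 12.75 and 13.72 at E10.5, 11.47, 11.91 and 12.36 at E11.5, and 12.27 and 11.81 at E12.5. The E10.5 arrays were above the rest. The change to E12.5 was -1.13 (SE 0.42, adjusted p = 0.149) as deposited and -0.86 (SE 0.22, adjusted p = 0.0481) after quantile normalization, and its other probe set changed by -0.91 and -0.90. The quantile-normalized call was kept in 1 of the 8 fits without 1 array, that without E10.5 C, with changes between -1.03 and -0.65. None of the probe sets of the large subunits of the head and stalk was called from E10.5 to E12.5. Those of Atp5a1 (alpha) disagreed: the brightest, 1449710_s_at, changed by -0.02 (SE 0.49) with overlap as deposited and by 0.25 without overlap after quantile normalization. Its 1423111_at changed by -0.43 and -0.23 with overlap, and 1420037_at by -0.93 (SE 0.42) and -0.90, with the E12.5 arrays below the E10.5 arrays on both scales. Atp5b (beta, which holds the catalytic sites) changed by -0.46 (SE 0.42) with overlap. For Atp5c1 (gamma) the change was -0.12 (SE 0.52) with overlap at 1416058_s_at and 0.31 (SE 0.26) without overlap at the dimmer 1438809_at. Atp5j2, a small membrane subunit, had the largest non-overlapping change of complex V from E10.5 to E11.5, -1.26 (SE 0.35, adjusted p = 0.158), and -0.25 with overlap after quantile normalization.

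Where a gene had several kept probe sets they often but not always pointed the same way. Of 50 such genes, all probe sets had the same sign for 40 from E10.5 to E11.5, 34 from E11.5 to E12.5 and 37 from E10.5 to E12.5 as deposited, and for 24, 34 and 37 after quantile normalization. The changes were also set beside the promoter words, with no test. The 30 probe sets of genes with the 1-free-base NRF1 word had a median change from E10.5 to E12.5 of -0.34 against -0.31 for the 116 without it, and the 40 of genes with the GABP core had -0.39 against -0.30 for the 106 without. After quantile normalization these pairs were -0.16 against -0.24 and -0.24 against -0.19. For the exact NRF1 palindrome the medians were -0.35 over 11 probe sets with it and -0.31 over 135 without, and -0.16 and -0.23 after quantile normalization. For the YY1 word they were -0.19 over 10 and -0.33 over 136, and then -0.16 and -0.23. For the ERR element they were -0.18 over 3 and -0.32 over 143, and then -0.05 and -0.23.

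Other genes of mitochondrial and energy metabolism were taken from lists. The mitochondrial ribosome, which translates the mitochondrially encoded subunits, had a median change from E10.5 to E12.5 of -0.38 over 136 probe sets, and -0.32 after quantile normalization. Of its probe sets 3 fell as deposited and 9 after quantile normalization, and none rose. Of all probe sets, 1.56% fell and 3.08% rose as deposited, and 2.39% fell and 3.77% rose after quantile normalization. Mrpl12, which also binds the mitochondrial RNA polymerase, fell by 1.43 (SE 0.32, adjusted p = 0.0307), Mrpl28 by 1.36 (SE 0.33, adjusted p = 0.0414) and Mrpl49 by 0.95 (SE 0.24, adjusted p = 0.0456). Among 48 probe sets of assembly factors without a member prefix, only those of Uqcc2, an assembly factor of complex III, were called: 1436810_x_at fell by 1.69 (SE 0.31, adjusted p = 0.0118), and 1448685_at by 1.67 with adjusted p = 0.0219.

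Uqcc2 read 11.13, 10.39 and 11.27 at E10.5, 9.68, 9.96 and 10.06 at E11.5, and 9.48 and 9.04 at E12.5 with probe set 1448685_at, so the 3 stages did not overlap. Among 50 probe sets of regulators of mitochondrial biogenesis and mitochondrial DNA, Polrmt, the mitochondrial RNA polymerase, fell by 0.97 (SE 0.25, adjusted p = 0.0485). Esrrg, an estrogen-related receptor, rose by 1.36 (SE 0.32, adjusted p = 0.034), from 4.12, 3.99 and 3.81 at E10.5 to 4.81 and 5.85 at E12.5, with 4.10, 4.15 and 4.93 at E11.5. The 38 probe sets of the citric acid cycle and pyruvate dehydrogenase had a median of -0.25, or -0.13 after quantile normalization, and none was called. Nor was any of the 34 of other respiratory chain genes and carriers, such as Cyc1 and the electron transfer flavoproteins. Their median was -0.31, or -0.16 after quantile normalization. ND5, the 1 mitochondrially encoded gene among the kept probe sets, changed by -0.39 (SE 0.43), and by -0.11 after quantile normalization, both with overlap.

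Glycolysis makes ATP in the cytosol. Its 40 probe sets had a median change from E10.5 to E12.5 of -0.82, and -0.78 after quantile normalization, with 3 and 8 falling and none rising. Of all probe sets, 1.56% and 2.39% fell on these scales. Aldoa, the aldolase, fell by 2.23 (SE 0.46, adjusted p = 0.0212) at 1439375_x_at and by 2.16 (SE 0.42, adjusted p = 0.0163) at 1434799_x_at. Hk2, a hexokinase, fell by 1.19 (SE 0.25, adjusted p = 0.0247). The cytosolic ribosome, bright like the members, had a median of -0.44 as deposited and -0.18 after quantile normalization over 85 probe sets. Of these 4 and 8 fell, among them Rps15, Rpl41 and Rps4x on both scales, against 1.56% and 2.39% of all probe sets.

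**Figure D4:**
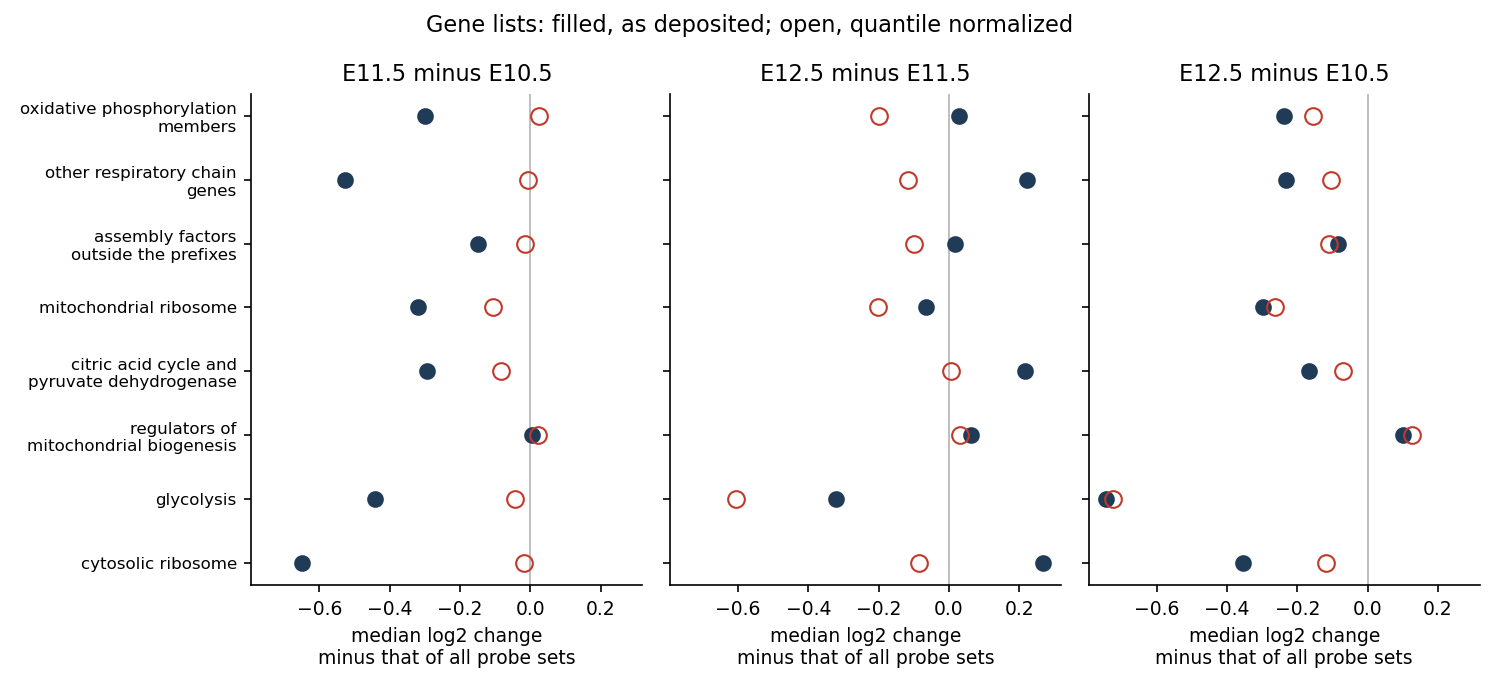
Median log2 change of the members and of 7 related gene lists minus the median of all kept probe sets, for the 3 comparisons, with filled points as deposited and open points after quantile normalization. From E10.5 to E11.5 most filled points lie to the left and the open points near 0, while from E10.5 to E12.5 the members lie at -0.24 and -0.16 and glycolysis lies farthest left on both scales.

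The markers of the captured tissue also differed between stages, given here as ranges of summed linear signal. The fissure and ventral optic cup list (5 kept of 6 listed) also held Tbx5, a gene of the dorsal cup. It had 1418 to 1765 at E10.5, 794 to 1382 at E11.5 and 1158 to 1518 at E12.5. This sum is carried by its brightest genes, and the list's median log2 change from E10.5 to E12.5 was -0.94, with Ntn1 called lower as deposited. Vax1 changed by -0.999 (adjusted p = 0.0501), and its fall of 0.97 passed after quantile normalization (adjusted p = 0.036). Bmp7 and Tbx5 changed by -0.88 and -0.94 and Vax2 by 0.98, none past the threshold. Markers of the neural retina, with 7 kept of 8 listed, had 11916 to 14220 at E10.5, 5366 to 10866 at E11.5 and 20363 to 22416 at E12.5, so that the E12.5 arrays stood above all others. The list's median log2 change from E10.5 to E12.5 was 0.09, and only Sfrp2 was called as deposited, with a rise of 1.74 (adjusted p = 0.023). Pax6 and Sox2 changed by 1.60 and 0.79 and passed only after quantile normalization, while Lhx2, Rax, Six3 and Six6 lay between -0.48 and 0.09. Those of the periocular mesenchyme (7 of 10) had 297 to 431 at E10.5, 841 to 1476 at E11.5 and 577 to 1056 at E12.5, and those of the lens (4 of 8) had 105 to 151, 421 to 541 and 344 to 449. In both sums every E10.5 array lay below every later one. In the lens list, Cryab was called and rose by 4.10 (adjusted p = 0.000213) from E10.5 to E12.5, Prox1 changed by 0.81 with overlap, and Bfsp2 and Cryaa changed by -0.27 and -0.26. The other 4 lens genes were not above the filter. The retinal pigment epithelium list (7 of 7) had 4382 to 9415, 4646 to 10490 and 4081 to 6449. Its genes moved in opposite directions. The list's median log2 change from E10.5 to E12.5 was 0.99 as deposited, with 2 genes called higher and 2 lower. Tyr read 4.25, 3.09 and 3.96 at E10.5 and 9.67 and 9.10 at E12.5, while Trpm1 went from 11.7, 10.5 and 9.7 to 8.5 and 7.3. The erythroid list (7 of 10) had 16992 to 22930, 10182 to 23253 and 16898 to 18190. The macrophage list (8 of 12) had 524 to 1424, 781 to 854 and 1060 to 1522, and the endothelial list (5 of 9) had 229 to 292, 242 to 259 and 328 to 335. The part of these differences in the members' changes was not tested.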

How the data were processed

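The authors deposited a table of log2 values that covers 45101 probe sets on 8 Affymetrix arrays. GCOS 1.4 is named, per the submitters' processing notes. How background was removed and how probes were summarized and normalized are not given in the sources used here. Optic fissure RNA was amplified by repeated in vitro transcription, per the labels' protocols, which favours 3 prime ends. One label says that the pooled embryos came from a single litter, another from separate litters.

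The 64 control probe sets and the lowest 40% by mean signal (below 3.94) were left out, leaving 27022. Symbols were taken from GEO's annotation of the platform, where 34958 probe sets had 1 symbol, 932 several and 9211 none. Stage was fitted over all 8 arrays in 1 linear model with limma 3.58.1 (R 4.3.3; 5 residual degrees of freedom) with a trend on mean signal, two-sided p-values and Benjamini-Hochberg adjustment over the kept probe sets at 0.05. Fold changes are differences of stage means of log2 values. Medians over members carry no test. The design assumed these units. A simulation with independent noise checked only that the mean estimated changes lay near those put in. It held no shift of whole arrays. The members, the lists and the rule for naming genes (called members, the largest non-overlapping changes per complex and comparison, fixed core subunits and isoforms, called or lowest-p list genes) were chosen with earlier results of these data known. Alternatives are given in the closing section. The number of arrays limits the precision of each value.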

Additional observations from a re-analysis of the deposited data

How the results depend on the processing

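Array weights gave 53, 69, 19 and 104 called members for E11.5 against E10.5, E12.5 against E11.5, E12.5 against E10.5 and any stage difference, and 73 and 44 for E12.5 against E11.5 and E12.5 against E10.5 after quantile normalization. Of all probe sets, 18.6%, 46.3%, 12.5% and 52.7% were called under these weights, and 32.7% and 13.3% after quantile normalization. The weights themselves rested on 1 array, since E11.5 B received 218 and no other array more than 1.20 (8.88 and 1.68 after quantile normalization), and the estimation stopped before it converged. The replicate letters were not used as pairs in the main fit. Correlations of same-letter deviations ran from -0.39 to 0.13. With 2 or 3 arrays per stage they cannot show whether the letters pair arrays. With the replicate block 0 members were called in every comparison on both scales. Quantile normalization moved the median change of members relative to all probe sets to 0.025, -0.20 and -0.16 in the 3 comparisons in order and the calls to 0, 2 and 12 (F test 2). The shares of all probe sets called were then 0.170%, 1.54% and 6.15% (F test 3.15%), and the 12 were 6.94% of members. Cyclic loess gave 0.012 and -0.20 in the first 2 and 2 and 8 calls in the last 2 (F test 3). Here 1.52% and 7.18% of all probe sets were called (F test 3.77%), and the 8 were 4.62% of members. For E12.5 against E10.5, median centring, no filter and 1 probe set per gene each left 1 call, and the arrays of these 2 stages alone 0. With 1 probe set per gene, E12.5 against E11.5 and the F test had 0 calls. After quantile normalization, E12.5 against E11.5 had 1 call with 1 probe set per gene, 1 without probe sets that can match other transcripts and 9 with the arrays of these stages alone. E12.5 against E10.5 then had 5 without a filter, 5 without such probe sets and 0 with these stages alone, and with 1 probe set per gene its relative median was -0.24. These settings, 1 at a time after quantile normalization, were chosen after seeing the data. For the replicate block, no filter and the arrays of 2 stages alone, the share over all probe sets was not taken. Those counts can therefore not be set against a background. Counts over fewer member probe sets come from the main fits, whose shares over all probe sets are given in the results above.

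Leaving out 1 E10.5 or E11.5 array at a time gave 0 to 2 calls for E12.5 against E11.5 (0.681% to 3.35% of all probe sets). For E12.5 against E10.5 it gave 0 to 6 (2.53% to 5.96%), and by the F test 0 to 3 (1.42% to 3.87%). After quantile normalization there were 0 to 21 (0.448% to 4.97%) and 1 to 17 (2.41% to 6.85%) in the first 2 of these. Over the fits without any 1 of the 8 arrays, the relative median ranged from -0.43 to -0.20, from -0.06 to 0.18 and from -0.32 to -0.17 in the 3 comparisons. After quantile normalization it ranged from -0.01 to 0.03, from -0.25 to -0.15 and from -0.22 to -0.12. The relative median from E10.5 to E12.5 stayed below 0 in all 22 settings that start from the deposited values, quantile and other normalizations among them. It also did in all 17 settings run after quantile normalization. All settings reuse the same arrays and are not independent of each other. With 2 arrays at E12.5 the counts of called members rest on few arrays. Without E12.5 B, which leaves 1 array at that stage, the relative median from E10.5 to E12.5 was -0.17, and -0.12 after quantile normalization.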
